A study of Capra hircus with 198 samples.

Results

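Subcutaneous fat was sampled from 6 adult female goats (Capra hircus) of the Murciano-Granadina breed, a Spanish dairy breed, of which 3 were lactating (goats 2, 3 and 6) and 3 were dry, that is, not producing milk (goats 54, 64 and 73). The 6 libraries were all those whose labels name subcutaneous fat, in a series of 33 tissues with 1 library for each of the same 6 goats. Each library held total RNA of 1 animal and was made with a strand-specific kit. No treatment or genotype is named in the labels for either group, and the day of lactation, pregnancy, parity, feeding, exact age and body site of the fat are not given in the sources used here. Because the goats of each state were different animals, an effect of lactation cannot be told apart from other traits that separated these 3 goats from those 3, and every p-value reflects the spread between animals.

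Adipocytes store fatty acids as triglycerides in a lipid droplet, and in ruminants fat tissue is a main site where fatty acids are made, largely from acetate. Insulin favours this storage, while growth hormone and catecholamines favour lipolysis, in which lipases cut triglycerides into fatty acids and glycerol that leave the cell. In dairy ruminants, fat tissue is known to make less fatty acid and to release more of it in early lactation, when the mammary gland takes up fatty acids for milk fat. The comparison of lactating with dry goats asks how the RNA of fat tissue differed between these states.

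The tissue label was in accord with its markers. ADIPOQ, which encodes the adipocyte hormone adiponectin, averaged 793 CPM in the fat libraries (CPM being a feature's count relative to the library total), 27.8 times its mean in neck skin, the next of the 33 tissues. Of 10 adipocyte markers measured, 9 had their highest mean in fat, and the exception was the complement protease gene CFD, which ranked 10 with its peak in spleen. Of 9 keratinocyte markers, KRT5, KRT1 and SFN were at 0 in all 6 fat libraries, while DSG1 averaged 9.85 CPM and KRT10 5.48 CPM. Of the mammary and milk markers, the milk protein gene LALBA was at 0 in all 6, while ELF5 averaged 8.83 CPM. The libraries held between 4.09 and 5.03 M counts, of which 12.2% to 21.2% fell on protein-coding genes and most of the rest on features annotated as lncRNAs (long noncoding RNAs). The library of lactating goat 6 stood apart. It had 15692 features with at least 10 counts, against 16700 to 19647 in the other 5. Its profile was slightly closer to the mean of neck skin (Spearman rho 0.862) than to that of the other fat libraries (0.860). That neck skin mean held the skin library of goat 6 itself, whereas the fat mean held no library of goat 6. Once goat 6 contributed to no mean, its profile was closest to fat (0.860), and mammary gland came second (0.848). The other 5 were closest to fat in either reading (0.874 to 0.932). From here on CPM is scaled further by the trimmed mean of M-values (TMM), and values of single goats are given in the order 2, 3 and 6 for lactation and 54, 64 and 73 for dry. The TMM factors were 1.09, 1.29 and 1.03 in lactating goats, against 0.978, 0.954 and 0.744 in dry goats. On this scale 3 counts corresponded to 0.521 to 0.802 CPM. KRT10 had 14.5 CPM in goat 6, against 2.14 to 5.15 CPM in the other 5 libraries. DSG1 had 15.5 CPM in goat 6, against 4.84 to 11.7 CPM in the other 5. The summed level of adipocyte markers was also the lowest in goat 6, with 1704, 1686 and 379 CPM in lactating goats 2, 3 and 6, against 1399, 764 and 984 CPM in dry goats 54, 64 and 73. In bulk tissue, fewer cells of a type and less RNA per cell cannot be told apart.

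In the fat of the lactating goats, most genes of fatty acid synthesis and all 13 protein-coding genes of the mitochondrial genome had lower mean levels than in dry goats, while PDK4, LIPE, several glucocorticoid-induced genes and markers of blood vessels had higher mean levels. None of these differences passed the main test over all genes. edgeR's quasi-likelihood F-test with Benjamini-Hochberg adjustment called 0 of 18245 features (0%) at an adjusted p of 0.05. The lowest adjusted p was 0.288, and 1327 features had an unadjusted p under 0.05. DESeq2 called 151 of the same features, 59 higher and 92 lower in lactating goats, and limma voom with sample weights called 2. Without the filter on low counts edgeR called 412 of 33129 features, and with only the genes not annotated as lncRNAs it called 7 of 9734. Leaving out goat 3, 6 or 54 gave 4, 4 and 3 called features, and leaving out goat 2, 64 or 73 gave 0.

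Group separation therefore serves below as a description only. In 1401 features (7.68%) all 3 lactating goats lay above all 3 dry goats, and in 1032 (5.66%) all 3 lay below. The median log2 fold change (lactating over dry) of all tested features was 0.04, with quartiles at -0.33 and 0.41, and scaling by library totals alone moved this median to 0.39. For any 1 gene, an exact two-sided permutation test of 3 against 3 goats cannot give a p below 0.1. The gene lists that follow were read as counts of separated members and as medians, beside these values for all features.

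Fatty acid synthesis was the metabolic pathway with the lowest list median. Of its 18 genes, 9 had their highest mean of the 33 tissues in fat. Of the 16 that passed the filter on low counts, 14 had a lower fitted level in lactating goats, 3 were lower in every lactating goat (beside 5.66% of all features), 7 had an unadjusted p under 0.05 and none was called by edgeR, while DESeq2 called 4. The list median was -1.42, against 0.04 for all features. It stayed below 0 under every alternative, from -1.82 (without goat 3) to -0.89 (without goat 73), and stood at -1.18 without goat 6.

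ELOVL6, which lengthens palmitate to stearate, had 259.7, 62.0 and 48.3 CPM in lactating goats, against 287, 845 and 1554 CPM in dry goats. The highest lactating goat, goat 2, lay just under the lowest dry goat, goat 54, and the other 2 lactating goats lay far lower. The means were 123 ± 118 CPM in lactating goats and 895 ± 635 CPM in dry goats (SD, n = 3 each), a log2 fold change of -2.86 ± 0.75 SE with an adjusted p of 0.471 in edgeR. DESeq2 gave an adjusted p of 0.00494, and the log2 fold change ranged from -4.02 to -2.27 over the alternatives, the lowest of these without goat 2. In the RefSeq annotation ELOVL6 overlaps the uncharacterised gene LOC102169085.

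ACACA encodes acetyl-CoA carboxylase alpha, which makes the malonyl-CoA that fatty acid synthase extends. It had 322, 67.4 and 49.7 CPM in lactating goats, against 453, 610.3 and 1058 CPM in dry goats, again with no overlap (log2 fold change -2.27 ± 0.67 SE, adjusted p = 0.498, and 0.0310 in DESeq2). FASN, the fatty acid synthase itself, had 420.2, 53.5 and 46.4 CPM in lactating goats, against 329, 676 and 1399 CPM in dry goats. Here goat 2 lay above dry goat 54, so the groups overlapped (log2 fold change -2.21 ± 0.85 SE, adjusted p = 0.604). Without goat 2 its log2 fold change was -4.00, and without goat 73 it was -1.60. SCD, the desaturase that makes oleate and palmitoleate, had 149, 55.8 and 17.1 CPM in lactating goats, against 22.4, 609 and 312 CPM in dry goats. Dry goat 54 was close to the lowest lactating goat, and the log2 fold change of -2.09 ± 0.999 SE had an adjusted p of 0.711.

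The genes that feed and regulate this pathway had the same order of goats in several cases. SLC25A1, the carrier that brings citrate out of mitochondria, had 28.0, 10.6 and 9.75 CPM in lactating goats, against 30.3, 60.1 and 101 CPM in dry goats, with no overlap (log2 fold change -1.99 ± 0.54 SE, adjusted p = 0.491, and 0.0326 in DESeq2). Its locus overlaps several other genes in the RefSeq annotation. THRSP, a small protein that promotes lipogenesis, had 41.6, 8.17 and 6.90 CPM in lactating goats, against 39.9, 98.9 and 178 CPM in dry goats, so that goats 2 and 54 nearly coincided (log2 fold change -2.48 ± 0.75 SE, adjusted p = 0.505, and 0.0334 in DESeq2). ACSS2, which activates acetate, had 87.3, 29.9 and 21.9 CPM in lactating goats, against 57.6, 113 and 174 CPM in dry goats, with overlap and a log2 fold change of -1.31. Of the enzymes that supply NADPH, ME1 had a log2 fold change of -1.54 and PGD of -1.11, neither past the test. The desaturase gene FADS1 had a log2 fold change of 0.61. For ELOVL6, ACACA, FASN, SCD, SLC25A1, THRSP and ACSS2, goat 54 was the lowest of the dry goats and goat 2 the highest of the lactating goats.

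The list for fatty acid uptake and triglyceride synthesis had no common direction. Of 13 tested members, 0 were higher and 2 lower in every lactating goat, and the median was -0.09, which was 0.23 with scaling by library totals and 0.12 without goat 6. ACSL1, which activates fatty acids to their CoA form, had 170.3, 205 and 15.9 CPM in lactating goats, against 229, 355 and 642 CPM in dry goats, with no overlap (log2 fold change -1.65 ± 0.74 SE, adjusted p = 0.687). GPD1, which makes the glycerol 3-phosphate backbone, had 105, 48.0 and 29.3 CPM in lactating goats, against 119.9, 132 and 183 CPM in dry goats, also with no overlap (log2 fold change -1.26 ± 0.43 SE, adjusted p = 0.567). The goats of both states overlapped for LPL, the lipase that frees fatty acids from lipoproteins at the vessel wall, with 202, 79.2 and 3.57 CPM in lactating goats, against 291, 24.5 and 16.9 CPM in dry goats. This was a range of more than an order of magnitude within each state, and the log2 fold change was -0.22 ± 1.22 SE. CD36, a fatty acid transporter, had 381, 498 and 16.9 CPM in lactating goats, against 251, 111 and 100.03 CPM in dry goats, where lactating goats 2 and 3 were the highest and goat 6 the lowest of all. GPAM, which starts glycerolipid assembly, had a log2 fold change of -0.90, DGAT2, which adds the last fatty acid, -1.33, and PCK1, which supports glyceroneogenesis, 1.41, and the groups overlapped for each.

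Lipolysis genes lay mostly on the higher side. Of 13 tested members, 9 had a higher fitted level in lactating goats, 0 were separated in either direction, and the median was 0.38, between 0.23 (without goat 73) and 0.73 over the alternatives. LIPE, the hormone-sensitive lipase, had 80.1, 101 and 23.6 CPM in lactating goats, against 23.8, 15.7 and 11.8 CPM in dry goats. Goats 2 and 3 were far above every dry goat, and goat 6 lay just below goat 54. The log2 fold change was 1.99 ± 0.51 SE, with an adjusted p of 0.471 in edgeR and 0.0341 in DESeq2. It was 2.33 without goat 6. PNPLA2, the lipase of the first step, had 34.1, 32.1 and 12.4 CPM in lactating goats, against 18.4, 14.3 and 6.15 CPM in dry goats, with overlap (log2 fold change 1.01 ± 0.50 SE, adjusted p = 0.728). MGLL, which cuts the last fatty acid, had a log2 fold change of 1.33 ± 0.66 SE. G0S2 encodes an inhibitor of PNPLA2, so it acts against lipolysis, and it had 36.8, 24.2 and 8.56 CPM in lactating goats, against 12.8, 5.71 and 9.90 CPM in dry goats (log2 fold change 1.29 ± 0.54 SE, adjusted p = 0.649). The list also holds brakes on lipolysis with a hormone input. PDE3B, the phosphodiesterase through which insulin restrains lipolysis, had 122, 97.8 and 43.8 CPM in lactating goats, against 73.7, 69.7 and 59.9 CPM in dry goats. PTGER3, a prostaglandin E2 receptor, had 93.0, 87.0 and 24.7 CPM in lactating goats, against 56.5, 30.9 and 24.3 CPM in dry goats. Both overlapped between states, with log2 fold changes of 0.38 and 0.87, and an antisense transcript of PTGER3 is annotated.

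**Figure D1:**
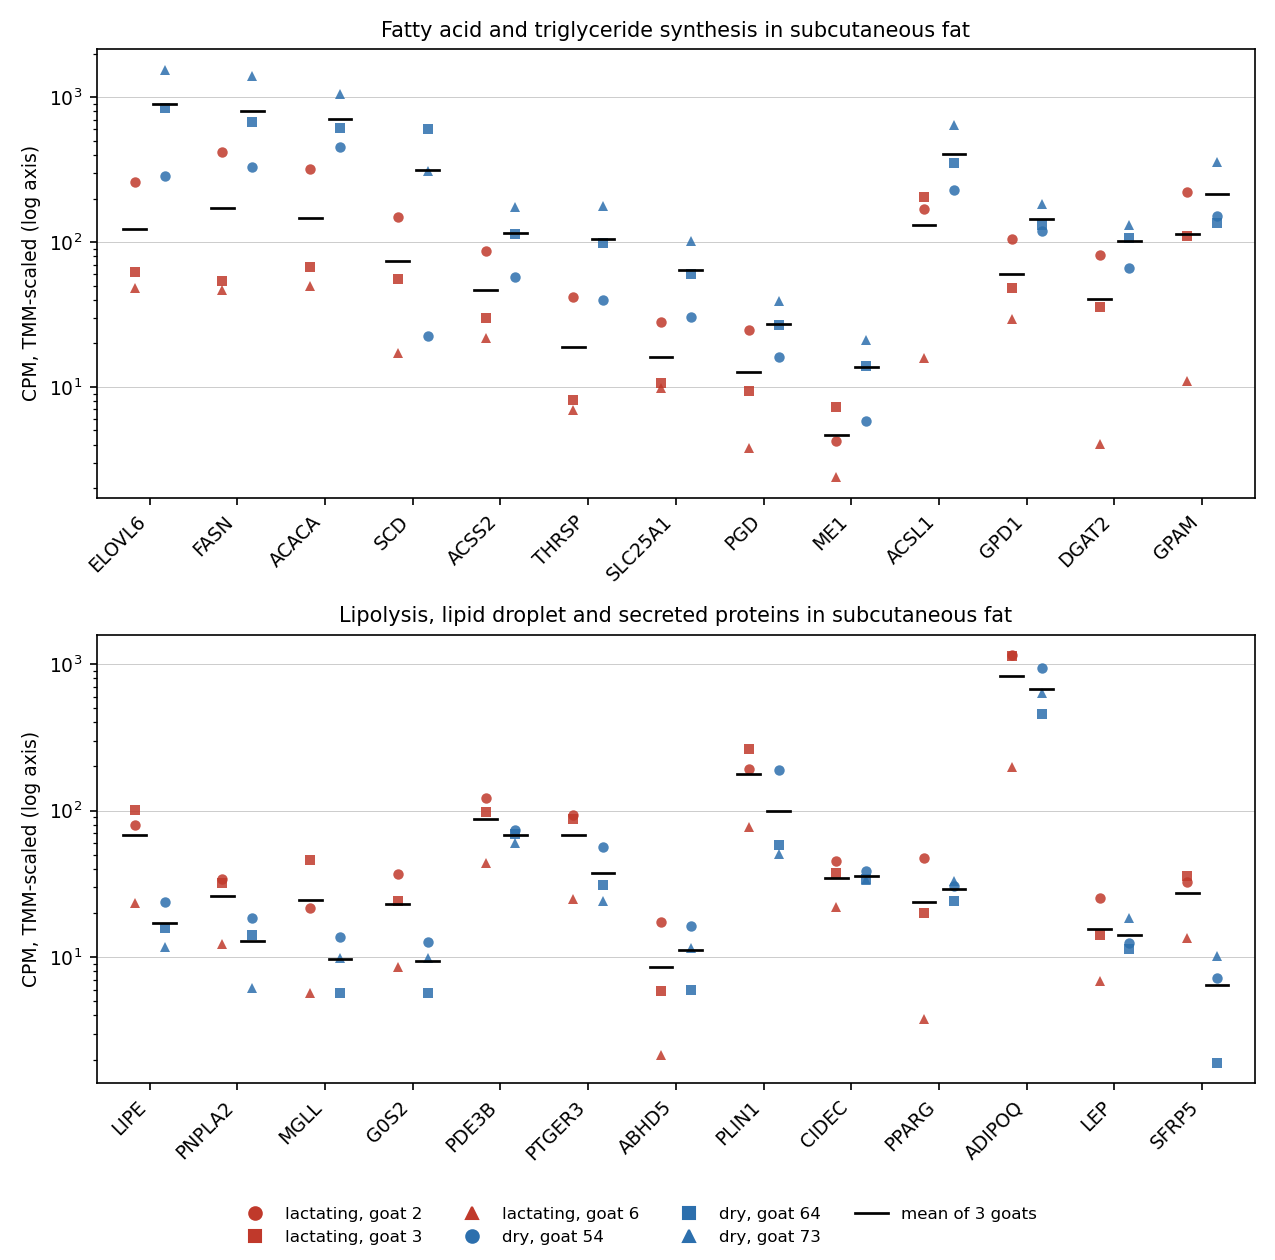
Levels of genes of fatty acid and triglyceride synthesis (upper panel) and of lipolysis, the lipid droplet and secreted proteins (lower panel) in subcutaneous fat, as TMM-scaled CPM on a log axis. Each point is 1 goat, lactating goats left of dry goats, and each bar the mean of 3 goats; lactating goats 3 and 6 have the lowest points for ELOVL6, FASN and ACACA, and for LIPE lactating goats 2 and 3 lie above all dry goats while goat 6 falls among them.

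Proteins of the lipid droplet and secreted factors of adipocytes showed less separation. Of 8 tested lipid droplet genes 0 were separated, with a median of -0.02. PLIN1, the droplet coat protein that controls access of lipases, had 193, 265 and 76.8 CPM in lactating goats, against 189.6, 58.2 and 50.3 CPM in dry goats. PLIN4, another droplet coat protein, had a log2 fold change of 0.84, and CIDEC, which promotes large droplets, -0.03. Among 9 tested adipokines and related secreted proteins, 1 was separated, and the median was 0.29. SFRP5, a secreted Wnt antagonist made by adipocytes, had 32.4, 35.6 and 13.6 CPM in lactating goats, against 7.17, 1.90 and 10.2 CPM in dry goats, higher in every lactating goat (log2 fold change 2.09 ± 0.59 SE, adjusted p = 0.494). ADIPOQ had 1148, 1142 and 199 CPM in lactating goats, against 945, 457 and 633 CPM in dry goats, where goat 6 alone was far below the rest. Its log2 fold change of 0.29 ± 0.56 SE ranged from -0.06 to 0.68 over the alternatives, the highest of these without goat 6. LEP, which encodes leptin, had 25.2, 14.2 and 6.90 CPM in lactating goats, against 12.6, 11.4 and 18.5 CPM in dry goats, with overlap and a log2 fold change of 0.13. RARRES2, the gene of the adipokine chemerin, had 224, 129 and 21.2 CPM in lactating goats, against 74.0, 58.5 and 18.5 CPM in dry goats (log2 fold change 1.31 ± 0.73 SE, adjusted p = 0.772). Of 9 tested adipocyte transcription factors, 8 had a lower fitted level in lactating goats, 0 were separated and the median was -0.45, between -1.28 (without goat 2) and -0.07 (without goat 6). PPARG, the nuclear receptor that drives adipocyte formation, had 47.1, 19.98 and 3.81 CPM in lactating goats, against 30.7, 24.01 and 32.9 CPM in dry goats. CEBPA, its partner factor, had a log2 fold change of -0.96, and EBF1, an early adipocyte factor, -0.14.

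Because the summed adipocyte markers differed between libraries, each gene was also expressed as a percentage of the ADIPOQ level of its own library, a reading chosen after the values were seen. By this measure 302 of 18245 features (1.66%) were higher and 524 (2.87%) lower in every lactating goat. Of the 16 fatty acid synthesis genes 5 were lower in every lactating goat, namely ACACA, ELOVL6, IDH1, MLXIPL and THRSP. ELOVL6 had 22.6, 5.43 and 24.2% in lactating goats, against 30.4, 185 and 245% in dry goats. ACACA had 28.1, 5.90 and 24.9% in lactating goats, against 47.9, 134 and 167% in dry goats. Of the 13 lipolysis genes 4 were higher in every lactating goat, namely G0S2, LIPE, MGLL and PTGER3. LIPE had 6.98, 8.81 and 11.8% in lactating goats, against 2.51, 3.43 and 1.86% in dry goats. Goat 6, which overlapped the dry goats for LIPE in CPM, was thus the highest per ADIPOQ. Goat 6 also had the lowest ADIPOQ level of all, so the division by itself raises every gene of goat 6 relative to the other libraries. FASN still overlapped, with 36.6, 4.69 and 23.3% in lactating goats, against 34.8, 148 and 221% in dry goats. Of the other lists, some had fewer and some had more separated members by this measure than in CPM. Of the 13 mitochondrially encoded genes 5 were lower in every lactating goat per ADIPOQ, against 9 in CPM, and of the 10 glucocorticoid-induced genes 3 were higher, against 4 in CPM. Of the 6 smooth muscle and pericyte markers 3 were higher, against 1 in CPM, and of the 15 extracellular matrix genes 2, against 1 in CPM. Genes without overlap in CPM that overlapped per ADIPOQ included SLC25A1, GPD1, SLC2A1, IGF1, TSC22D3, HSD11B1, PPARA, EHHADH, FDFT1, ND5, COL6A1 and PECAM1. Those that overlapped in CPM and were separated per ADIPOQ included FKBP5, COL4A2, VWF, ACTA2, DCN and CPT1A.

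Among genes of insulin signalling and glucose use, PDK4 showed the clearest separation. PDK4 encodes the kinase that shuts pyruvate dehydrogenase and so spares glucose when fatty acids are burned. It had 79.7, 101 and 41.2 CPM in lactating goats, against 22.4, 10.5 and 9.09 CPM in dry goats, and the lowest lactating goat lay well above the highest dry goat. The means were 73.9 ± 30.2 CPM in lactating goats and 14.0 ± 7.33 CPM in dry goats (SD, n = 3 each), a log2 fold change of 2.40 ± 0.46 SE with an adjusted p of 0.343 in edgeR and 0.000647 in DESeq2. The log2 fold change stayed between 2.07 and 2.91 over the alternatives. FOXO1, a transcription factor that insulin keeps out of the nucleus, had 21.0, 17.7 and 7.37 CPM in lactating goats, against 5.38, 4.28 and 5.35 CPM in dry goats, with no overlap (log2 fold change 1.62 ± 0.48 SE, adjusted p = 0.498). Its annotated antisense transcript FOXO1-AS1 had 74.7, 43.8 and 82.1 CPM in lactating goats, against 23.1, 16.9 and 22.2 CPM in dry goats, and how the counting treated strands is not given, so the 2 cannot be told apart with certainty. IRS2, an adaptor of the insulin receptor, had 25.03, 20.9 and 9.75 CPM in lactating goats, against 8.52, 9.03 and 10.2 CPM in dry goats (log2 fold change 1.01 ± 0.42 SE, adjusted p = 0.646), and goat 6 lay among the dry goats. The glucose transporter gene SLC2A1 was the 1 member lower in every lactating goat, with 5.26, 0.695 and 6.19 CPM in lactating goats, against 6.50, 7.61 and 14.98 CPM in dry goats, at low counts. The insulin-responsive transporter gene SLC2A4 had a log2 fold change of -0.17. The kinase subunit genes PIK3R1 and PIK3CA had log2 fold changes of 0.27 and -0.11. In all, 2 of 13 tested members were higher and 1 lower in every lactating goat, and the list median was 0.46, between 0.12 (without goat 2) and 0.86 over the alternatives.

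The genes of fat oxidation diverged. Of 11 tested members 1 was higher and 1 lower in every lactating goat, and the median was 0.17. PPARA, a nuclear receptor that turns on oxidation genes, had 30.3, 58.4 and 67.3 CPM in lactating goats, against 15.7, 13.8 and 29.4 CPM in dry goats, with goat 6 the highest of all (log2 fold change 1.41 ± 0.41 SE, adjusted p = 0.498). EHHADH, a peroxisomal enzyme of beta-oxidation, had 7.99, 7.47 and 5.95 CPM in lactating goats, against 13.4, 10.7 and 31.6 CPM in dry goats, lower in every lactating goat (log2 fold change -1.37 ± 0.47 SE, adjusted p = 0.567). CPT1A, the entry step of fatty acids into mitochondria, had 11.99, 25.2 and 4.52 CPM in lactating goats, against 4.93, 1.43 and 0 CPM in dry goats, with a log2 fold change of 2.67 ± 0.98 SE. ACADL and ACADVL, dehydrogenases of the first oxidation step, had log2 fold changes of -0.15 and 0.20.

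Genes that glucocorticoids are known to induce had a high share of separated members. Of 10 tested, 4 were higher in every lactating goat (40% of the list) and 0 lower, where 7.68% of all features were higher, and 4 had an unadjusted p under 0.05. The median was 0.67, between 0.49 and 1.02 over the alternatives. ZBTB16, a transcription factor, had 30.3, 23.8 and 11.9 CPM in lactating goats, against 6.28, 4.28 and 0.802 CPM in dry goats, with no overlap (log2 fold change 2.52 ± 0.64 SE, adjusted p = 0.471, and 0.0211 in DESeq2). TSC22D3, known as GILZ, a mediator of glucocorticoid action, had 23.8, 21.9 and 21.2 CPM in lactating goats, against 9.41, 14.98 and 10.2 CPM in dry goats, also with no overlap (log2 fold change 0.95 ± 0.33 SE, adjusted p = 0.576). Its locus overlaps other genes in the RefSeq annotation. PER1, a clock gene with a glucocorticoid response, had 6.73, 6.43 and 3.09 CPM in lactating goats, against 1.34, 1.19 and 2.41 CPM in dry goats (log2 fold change 1.71 ± 0.65 SE, adjusted p = 0.592). HSD11B1, the enzyme that regenerates active cortisol, had 7.99, 9.90 and 8.33 CPM in lactating goats, against 6.28, 7.13 and 6.69 CPM in dry goats, separated by a small margin with a log2 fold change of 0.38. FKBP5, a co-chaperone of the glucocorticoid receptor, had 104, 41.4 and 12.6 CPM in lactating goats, against 9.64, 11.9 and 13.6 CPM in dry goats, where goats 2 and 3 were high and goat 6 lay among the dry goats (log2 fold change 2.17 ± 0.63 SE, adjusted p = 0.498). Its log2 fold change was 1.21 without goat 2 and 2.56 without goat 6. The receptor gene NR3C1 (-0.42) and the induced gene KLF9 (-0.31) had log2 fold changes below 0, with overlap.

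**Figure D2:**
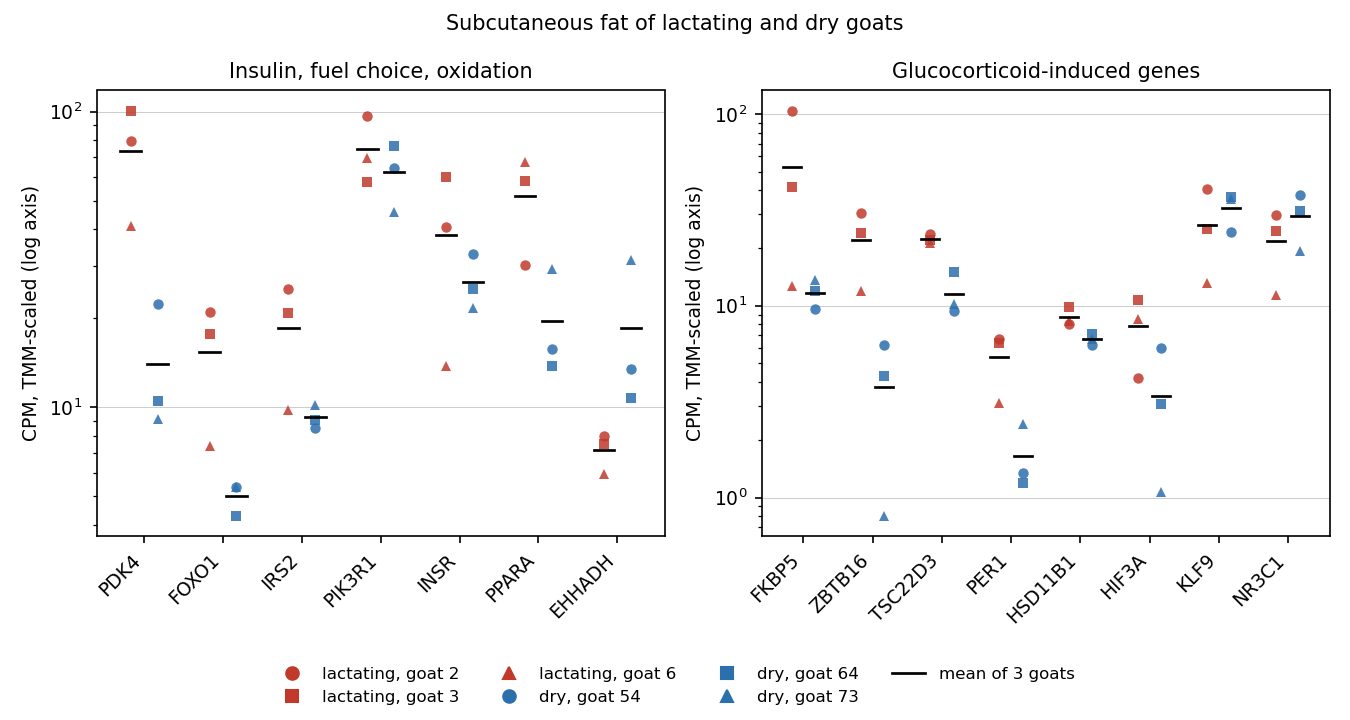
Levels of genes of insulin signalling, fuel choice and oxidation (left panel) and of glucocorticoid-induced genes with their receptor NR3C1 (right panel) in subcutaneous fat, as TMM-scaled CPM on a log axis. Points are goats, lactating left of dry, and bars are means of 3 goats; PDK4, FOXO1, ZBTB16, TSC22D3, PER1 and HSD11B1 have all lactating goats above all dry goats, while FKBP5 and IRS2 overlap through goat 6.

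The growth hormone, prolactin and IGF axis had 11 tested members, of which 0 were higher and 1 lower in every lactating goat, with a median of -0.30, which was 0.17 with scaling by library totals. IGF1, the growth factor that growth hormone induces, had 23.98, 17.03 and 12.8 CPM in lactating goats, against 36.1, 29.5 and 25.4 CPM in dry goats, with no overlap (log2 fold change -0.76 ± 0.33 SE, adjusted p = 0.678). IGFBP5, which binds IGF in the matrix, had 5.05, 23.5 and 10.2 CPM in lactating goats, against 22.9, 54.2 and 40.1 CPM in dry goats, overlapping at goat 3 (log2 fold change -1.59 ± 0.55 SE, adjusted p = 0.567). GHR, the growth hormone receptor, had 106, 75.1 and 18.6 CPM in lactating goats, against 64.5, 53.5 and 57.0 CPM in dry goats. PRLR, the prolactin receptor, had 21.2, 17.7 and 24.5 CPM in lactating goats, against 23.98, 26.4 and 26.7 CPM in dry goats. Neither separated the groups, with log2 fold changes of 0.19 and -0.28. Of 8 nuclear hormone receptors tested 0 were separated, and the median was 0.17.

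All 13 protein-coding genes of the mitochondrial genome had lower fitted levels in lactating goats, and 9 were lower in every lactating goat (69.2% of the list, with 5.66% of all features). These genes encode subunits of the respiratory chain and the ATP synthase and are cut from long shared precursor transcripts, so they are not independent of each other. The list median was -1.54, from -1.68 to -1.09 over the alternatives and -1.34 without goat 6. edgeR called none of them, with 10 at an unadjusted p under 0.05, and DESeq2 called 3. COX1, a subunit of cytochrome c oxidase, had 483, 396 and 156 CPM in lactating goats, against 767, 642 and 1759.6 CPM in dry goats, and dry goat 73 stood highest (log2 fold change -1.61 ± 0.49 SE, adjusted p = 0.518). COX3, another subunit, had 39.3, 31.1 and 11.9 CPM in lactating goats, against 80.2, 74.4 and 153 CPM in dry goats (log2 fold change -1.90 ± 0.46 SE, adjusted p = 0.424, and 0.0126 in DESeq2). ND5, a subunit of complex I, had 267, 279 and 270.0 CPM in lactating goats, against 593, 414 and 1003 CPM in dry goats, with almost equal values in the 3 lactating goats (log2 fold change -1.30 ± 0.33 SE, adjusted p = 0.464, and 0.0414 in DESeq2). CYTB, of complex III, had 420.4, 422 and 179 CPM in lactating goats, against 524, 384 and 678 CPM in dry goats, with overlap and a log2 fold change of -0.63.

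The ribosomal RNA genes of the same genome lay on the other side. KEF96_r01 had 167, 359 and 106 CPM in lactating goats, against 40.8, 45.6 and 101 CPM in dry goats (log2 fold change 1.75 ± 0.50 SE, adjusted p = 0.494). KEF96_r02 had 179.8, 330.1 and 94.7 CPM in lactating goats, against 33.8, 31.1 and 47.6 CPM in dry goats (log2 fold change 2.43 ± 0.44 SE, adjusted p = 0.343). Both were higher in every lactating goat. The part of library preparation in these ribosomal RNA levels was not tested. Features antisense to 2 of the protein-coding genes lay on the same side as those genes. ND5-AS1 had 71.5, 1003 and 60.2 CPM in lactating goats, against 1206, 1735 and 5115 CPM in dry goats. ND4-AS1 had 4092, 2173 and 5169.6 CPM in lactating goats, against 5237, 6437 and 14688 CPM in dry goats, and both were lower in every lactating goat. ND5 and ND6, ATP6 and its neighbours ATP8 and COX3, and ND4 and ND4L overlap in the annotation, and the share of reads between them is not known here.

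**Figure D3:**
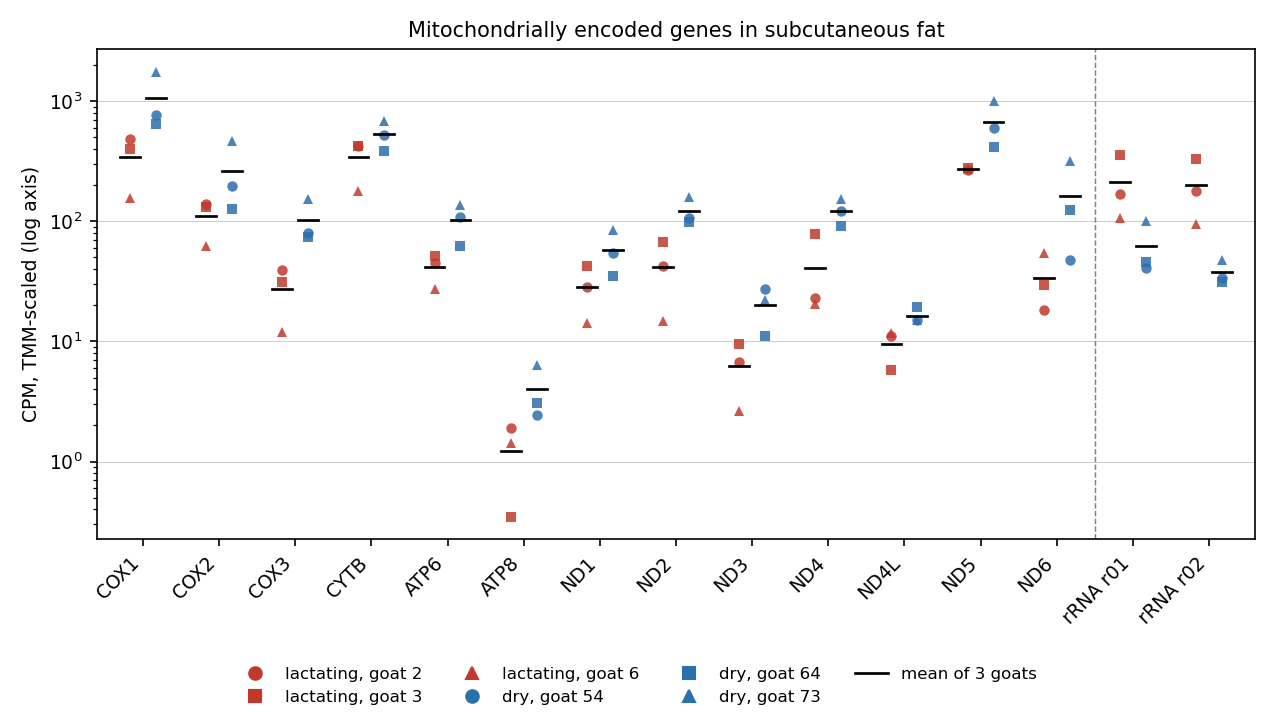
Levels of the 13 protein-coding genes and, right of the dashed line, the 2 ribosomal RNA genes of the mitochondrial genome in subcutaneous fat, as TMM-scaled CPM on a log axis. Points are goats, lactating left of dry, and bars are means of 3 goats; the protein-coding genes have lower means in lactating goats and the ribosomal RNA genes higher ones.

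Fat tissue also holds matrix, vessels and immune cells. Of 15 tested extracellular matrix genes 12 had a higher fitted level in lactating goats, 1 was higher in every lactating goat, and the median was 0.39, which was 0.03 without goat 2. COL4A2, a chain of basement membrane collagen, had 704, 397 and 108 CPM in lactating goats, against 86.7, 130.0 and 54.03 CPM in dry goats, where goats 2 and 3 were high and goat 6 lay among the dry goats (log2 fold change 2.16 ± 0.60 SE, adjusted p = 0.494, and 0.0337 in DESeq2). COL4A1, its partner chain, had 885, 518 and 167 CPM in lactating goats, against 225, 231 and 141 CPM in dry goats (log2 fold change 1.39 ± 0.51 SE, adjusted p = 0.591). COL6A1, of the collagen that surrounds adipocytes, had 96.5, 38.6 and 56.1 CPM in lactating goats, against 34.1, 24.2 and 19.8 CPM in dry goats, with no overlap (log2 fold change 1.29 ± 0.39 SE, adjusted p = 0.498). The fibrillar collagen gene COL3A1 had a log2 fold change of 0.31 and the fibrillin gene FBN1 -0.31.

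Markers of vessels had higher fitted levels throughout. All 7 tested endothelial markers and all 6 tested markers of smooth muscle and pericytes were on the higher side in lactating goats, with 1 of each list separated and medians of 1.01 and 0.91. The endothelial median was 0.14 without goat 3, so it rested largely on that animal. The summed level of the 8 endothelial markers was 151, 336 and 95.9 CPM in lactating goats, against 130.4, 82.7 and 63.1 CPM in dry goats, and that of the 8 smooth muscle and pericyte markers was 204, 216 and 109.9 CPM in lactating goats, against 108, 101 and 71.9 CPM in dry goats. PECAM1, an endothelial adhesion protein, had 39.7, 90.5 and 33.3 CPM in lactating goats, against 32.3, 24.5 and 10.97 CPM in dry goats, with no overlap (log2 fold change 1.27 ± 0.49 SE, adjusted p = 0.604). VWF, von Willebrand factor, had 38.1, 96.3 and 13.8 CPM in lactating goats, against 22.4, 6.66 and 6.42 CPM in dry goats (log2 fold change 2.06 ± 0.72 SE, adjusted p = 0.575). ACTA2, smooth muscle actin, had 24.8, 15.99 and 2.85 CPM in lactating goats, against 3.36, 2.85 and 1.60 CPM in dry goats, overlapping at goat 6 (log2 fold change 2.46 ± 0.73 SE, adjusted p = 0.498). Vessel cells also make COL4A1 and COL4A2, and their part in those values was not tested. Of 7 fibroblast and progenitor markers tested 4 had lower fitted levels, with a median of -0.80, which was -0.47 without goat 64. The only separated member, PI16, went the other way, so 1 was higher and 0 lower in every lactating goat. DCN, a matrix proteoglycan of fibroblasts, had 222, 90.7 and 39.0 CPM in lactating goats, against 186, 255 and 226 CPM in dry goats. PDGFRA, the receptor that marks adipocyte progenitors, had 37.4, 14.9 and 11.9 CPM in lactating goats, against 36.1, 39.7 and 55.1 CPM in dry goats. Both overlapped at goat 2.

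Of 10 tested macrophage markers 1 was higher and 1 lower in every lactating goat, with a median of 0.16. The lower one was LYVE1, a hyaluronan receptor of resident tissue macrophages and of lymphatic endothelium, with 5.68, 3.30 and 2.38 CPM in lactating goats, against 11.4, 17.8 and 18.7 CPM in dry goats. The highest lactating goat lay below the lowest dry goat (log2 fold change -2.07 ± 0.47 SE, adjusted p = 0.378, and 0.00993 in DESeq2). MRC1, the mannose receptor of the same macrophages, had 69.2, 58.6 and 11.9 CPM in lactating goats, against 32.5, 31.6 and 20.3 CPM in dry goats, with overlap and a log2 fold change of 0.73. The 9 keratinocyte markers had a summed level of 10.1, 12.2 and 31.4 CPM in lactating goats, against 17.03, 12.8 and 18.2 CPM in dry goats, with 3 of the 9 at 0 in every fat library and the highest sum in goat 6. The summed 10 skeletal muscle markers were 45.2, 44.5 and 30.7 CPM in lactating goats, against 20.8, 46.4 and 112 CPM in dry goats. The summed 12 mammary and milk markers were 3.79, 7.12 and 25.9 CPM in lactating goats, against 13.7, 9.75 and 5.62 CPM in dry goats, and most of this was ELF5, a transcription factor, with 2.94, 4.69 and 24.5 CPM in lactating goats, against 9.19, 6.66 and 4.28 CPM in dry goats. B and plasma cell markers summed to 23.8, 25.7 and 58.0 CPM in lactating goats, against 21.5, 33.3 and 28.9 CPM in dry goats, and T cell markers to 17.5, 26.9 and 23.6 CPM in lactating goats, against 20.8, 24.0 and 14.7 CPM in dry goats. The part of these cells in the other results was not tested.

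The remaining lists lay near the median of all features or below it without a separated majority. The median was 0.11 for 11 cholesterol synthesis genes, of which 1, the squalene synthase gene FDFT1, was higher in every lactating goat. Chaperones had a median of -0.36 over 14 genes, with 0 separated, and 0.06 with scaling by library totals. Interferon-stimulated genes had a median of -0.31 over 7 genes, with 1 separated each way, and circadian clock genes 0.14 over 10 genes, with 1 lower in every lactating goat. No tested member was separated among cytokines and acute phase genes (3 tested, median 0.15), immediate early genes (4 tested, median -0.10) or Schwann cell markers (2 tested, median -1.20). The deiodinase gene DIO2 was the 1 tested thermogenic gene (0.28) and AURKB the 1 tested cell division marker (0.04), and 0 of 2 erythroid markers passed the filter. UCP1, the uncoupling protein of brown fat, had at most 0.238 CPM, in goat 6, under the level of 3 counts. The cytokine genes TNF and CXCL8 were at 0 in all 6 libraries, which allows at most 0.521 to 0.802 CPM per library, and IL6 had 11.4, 7.30 and 9.52 CPM in lactating goats, against 7.62, 9.99 and 7.76 CPM in dry goats.

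**Figure D4:**
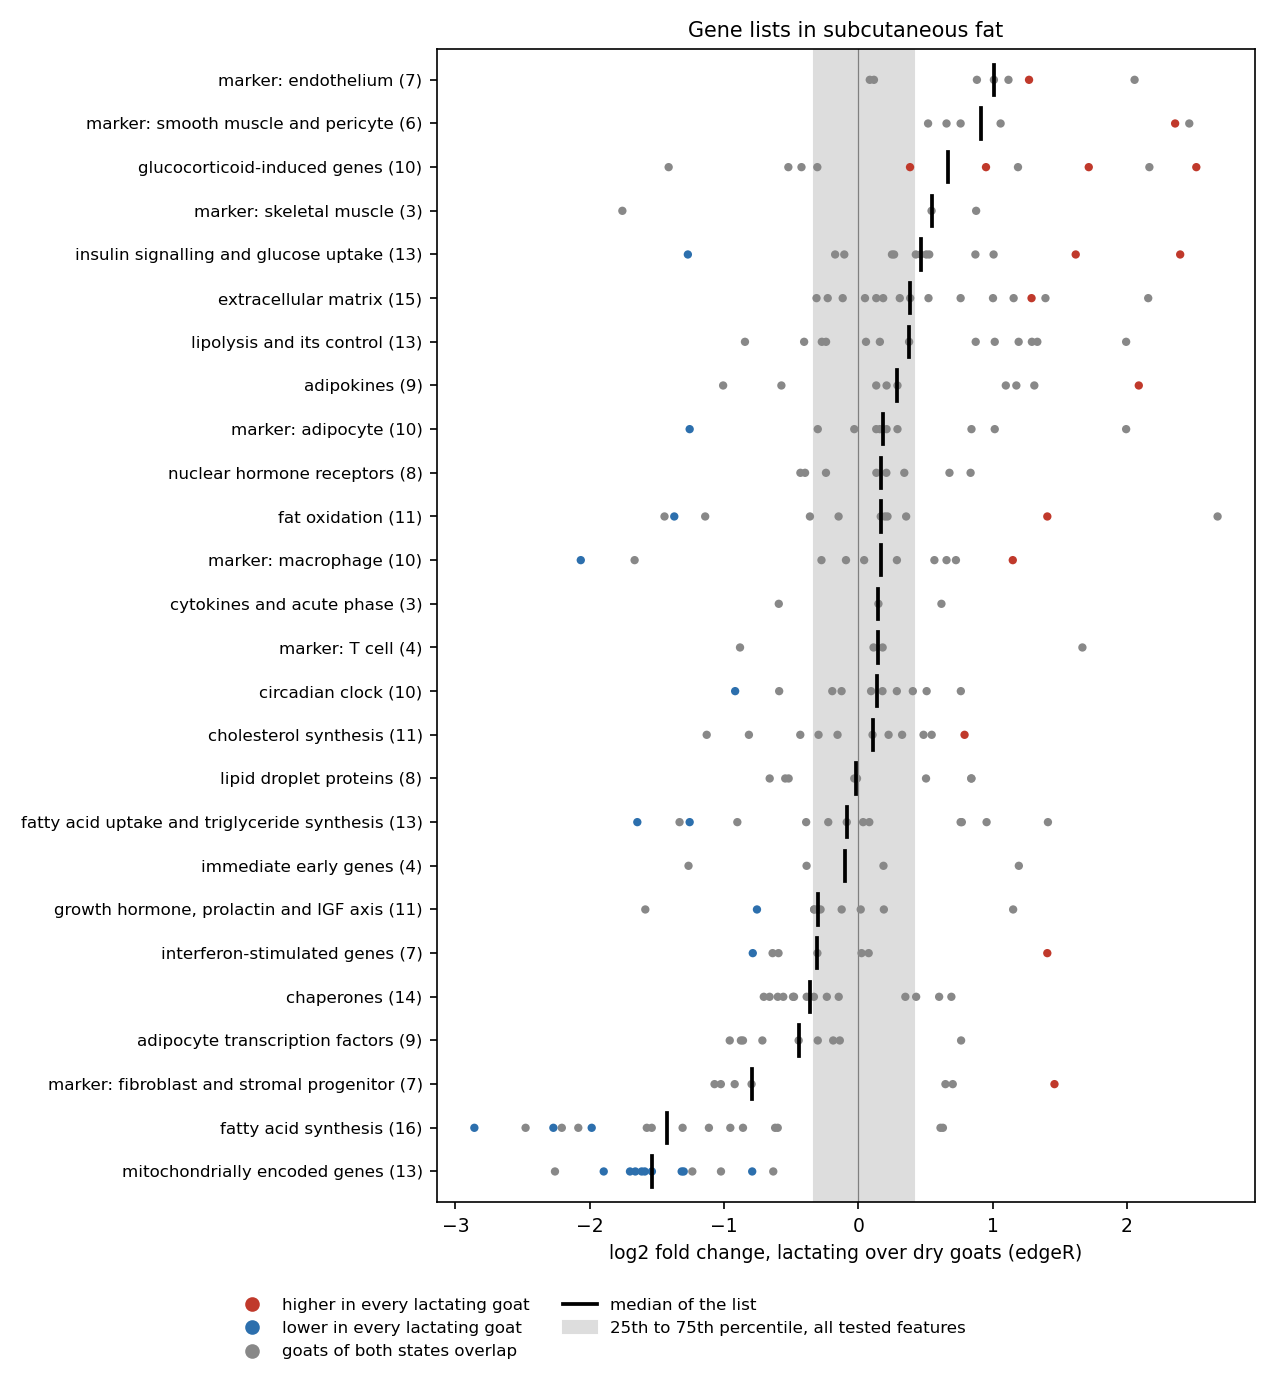
Log2 fold changes (lactating over dry goats, edgeR) of the tested genes of each list with at least 3 tested genes in subcutaneous fat, with the number of tested genes in brackets. Each dot is a gene, coloured by whether all lactating goats lay above or below all dry goats, black bars are list medians, and the grey band spans the quartiles of all tested features, -0.33 to 0.41; the lowest medians are those of mitochondrially encoded genes (-1.54) and fatty acid synthesis (-1.42).

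The 10 features with the smallest p held 3 protein-coding genes, 1 pseudogene and 6 lncRNAs, and edgeR with the filter on low counts called none of them. DESeq2 called all 10, and so did edgeR without that filter. BYSL, a factor of small ribosomal subunit assembly, had 23.6, 25.2 and 33.5 CPM in lactating goats, against 4.03, 3.09 and 4.81 CPM in dry goats. The lactating goats formed a narrow group far above the dry goats (log2 fold change 2.78 ± 0.37 SE, adjusted p = 0.288, and 3.10e-06 in DESeq2). FOXN4, a forkhead transcription factor, had 64.8, 13.03 and 58.0 CPM in lactating goats, against 3.14, 5.71 and 2.14 CPM in dry goats, with no overlap (log2 fold change 3.61 ± 0.64 SE, adjusted p = 0.343, and 2.73e-05 in DESeq2). The protein-coding gene LOC102188073 had 6.31, 2.78 and 3.81 CPM in lactating goats, against 25.1, 39.9 and 47.6 CPM in dry goats (log2 fold change -3.12 ± 0.43 SE, adjusted p = 0.288, and 1.30e-07 in DESeq2). The pseudogene LOC108636729, which overlaps LAMA2, had 154, 25.2 and 72.3 CPM in lactating goats, against 6.05, 7.61 and 9.09 CPM in dry goats (log2 fold change 3.46 ± 0.60 SE, adjusted p = 0.343, and 1.35e-05 in DESeq2). When only genes not annotated as lncRNAs were tested, edgeR called BYSL, FOXN4, LOC102188073 and LOC108636729, each with an adjusted p of 0.0430. Without goat 3 it called FOXN4 and LOC108636729, each at 0.0369.

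The 6 lncRNAs were all lower in every lactating goat. The intergenic LINC49015 had 10.3, 17.4 and 77.6 CPM in lactating goats, against 579, 1283 and 819 CPM in dry goats, and here goat 6 was the highest lactating goat (log2 fold change -4.68 ± 0.75 SE, adjusted p = 0.343, and 3.27e-09 in DESeq2). LINC45759 had 10.3, 10.4 and 20.5 CPM in lactating goats, against 82.5, 261 and 109 CPM in dry goats (log2 fold change -3.46 ± 0.50 SE, adjusted p = 0.288, and 3.77e-08 in DESeq2). LINC23580 had 6.52, 6.43 and 21.2 CPM in lactating goats, against 80.2, 103 and 70.1 CPM in dry goats (log2 fold change -2.90 ± 0.49 SE, adjusted p = 0.343, and 1.63e-05 in DESeq2). LINC49015 and LINC23580 were also called by voom, with adjusted p-values of 0.00500 and 0.0159, and by edgeR without goat 6, each at 0.0233. The log2 fold changes of LINC26213, MORN4-OT1 and ADAMTSL1-AS1 were -2.03, -2.24 and -3.20, and edgeR called ADAMTSL1-AS1 without goat 54 (adjusted p = 0.0304). Over all features, 686 of 8250 lncRNAs tested (8.32%) were higher and 532 (6.45%) lower in every lactating goat, against 7.06% and 5.04% of 9703 protein-coding genes.

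The mammary gland of the same goats offers the direct counterpart, since milk fat is made there. The difference between the effects (log2 fold change in fat minus that in mammary gland) was tested as an interaction over 12 libraries, and 30 of 21200 features (0.142%) were called, 1 with a positive difference and 29 with a negative one. With the goat as a block, which pairs both tissues of an animal, 7 were called. Leaving out goat 2, 3, 6, 64 or 73 gave 5, 8, 12, 5 and 5 called features, and leaving out goat 54 gave 33. The called features in the gene lists were CSN2, CSN3 and CIDEA. CSN2 and CSN3 encode beta- and kappa-casein of milk, and in fat CSN2 had 0, 0 and 0 CPM in lactating goats, against 0.884, 0 and 0 CPM in dry goats in the scaling of this fit. In the mammary gland CSN2 had 8508, 6500.5 and 9844 CPM in lactating goats, against 0.228, 0 and 0 CPM in dry goats. The interaction of CSN2 had an adjusted p of 0.00705, and 0.0376 with the block. That of CSN3 had 0.0418, and 0.0844 with the block.

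CIDEA, which joins lipid droplets and is known to take part in milk fat secretion in mice, gave the called difference within lipid metabolism. In fat it had 12.8, 11.8 and 4.95 CPM in lactating goats, against 9.06, 24.5 and 11.6 CPM in dry goats, which overlapped, and in the mammary gland 18.1, 15.2 and 18.7 CPM in lactating goats, against 0.684, 2.20 and 0.840 CPM in dry goats, which did not. The difference was -4.36 ± 0.78 SE (adjusted p = 0.0433, and 0.0844 with the block). Other called protein-coding genes with large differences were SLC7A4, of the cationic amino acid transporter family (-9.04), TSPAN6, a tetraspanin (-6.58), and LOC102178810 (-6.12). In fat, MPC2, a subunit of the mitochondrial pyruvate carrier, had 4.54, 2.92 and 0.944 CPM in lactating goats, against 7.07, 8.64 and 12.4 CPM in dry goats. In the mammary gland it had 14.6, 7.92 and 14.2 CPM in lactating goats, against 0.456, 1.002 and 0.210 CPM in dry goats. Its difference was -6.10 (adjusted p = 0.0213).

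Several enzymes of fatty acid synthesis had opposite signs in fat and mammary gland without passing the interaction test. SCD had a log2 fold change of -2.09 in fat and 5.26 in the mammary gland, where its levels were 16.6, 26.0 and 29.96 CPM in lactating goats, against 0.456, 1.40 and 0 CPM in dry goats. The difference of -7.35 ± 1.503 SE had an adjusted p of 0.0796. FASN had 380.4, 196 and 351 CPM in lactating goats, against 2.05, 55.7 and 18.7 CPM in dry goats in the mammary gland, and a difference of -5.87 (adjusted p = 0.142). The difference was -6.06 for GPAM (adjusted p = 0.0818), -5.20 for ACACA (0.101) and -4.74 for ACSL1 (0.0979). Of 16 fatty acid synthesis genes tested 15 had a negative difference, with a median of -2.02. The same held for 11 of 13 genes of uptake and triglyceride synthesis (median -1.79), 10 of 12 of cholesterol synthesis (median -2.91) and 13 of 13 mitochondrially encoded genes (median -2.13), beside a median of 0.00 for all features. A negative majority was not particular to these lists. It also held for insulin signalling (13 of 14, median -0.54), the growth hormone, prolactin and IGF axis (11 of 13, -0.96) and chaperones (12 of 14, -0.83). Lipolysis genes (9 of 13, median 0.22) and endothelial markers (6 of 7, 0.25) had mostly positive differences. For COX1 the mammary levels were 791, 260.1 and 684 CPM in lactating goats, against 73.6, 318 and 278 CPM in dry goats, with a log2 fold change of 1.41. PDK4 had a difference of 1.05 (adjusted p = 0.659), with a mammary log2 fold change of 1.32.

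**Figure D5:**
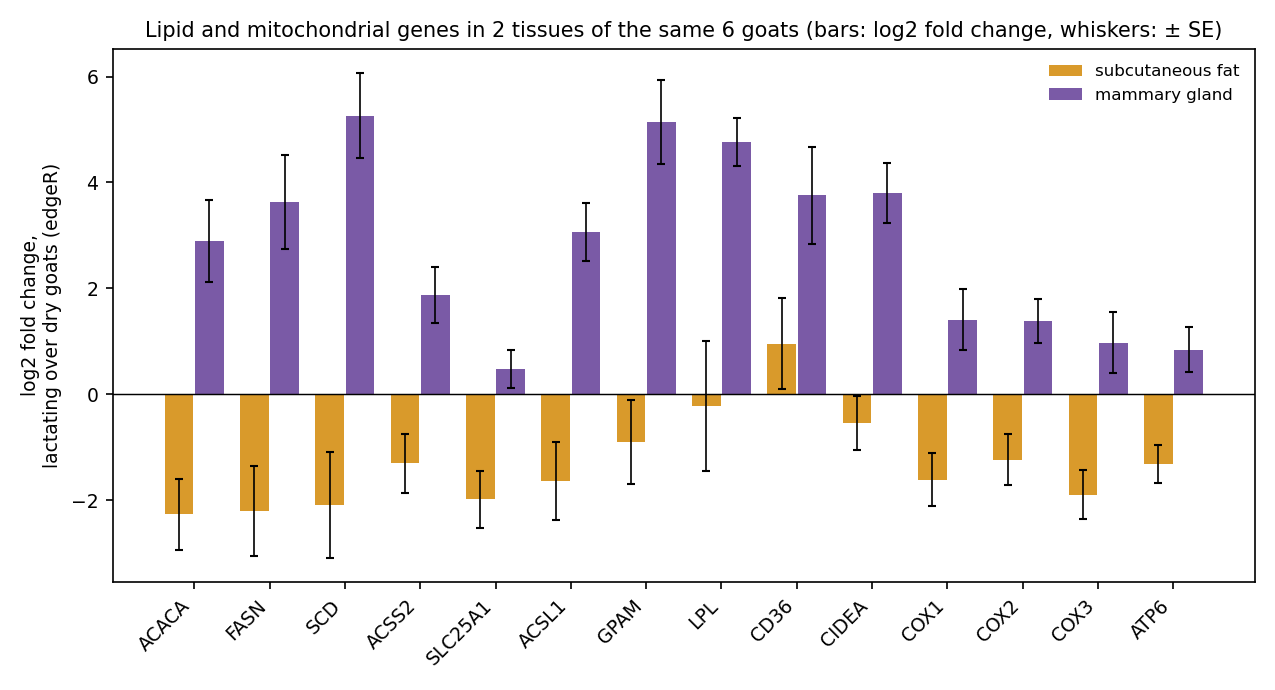
Log2 fold changes (lactating over dry goats, edgeR) of lipid and mitochondrial genes in subcutaneous fat (left bar of each pair) and mammary gland (right bar) of the same 6 goats, with whiskers of 1 SE. Apart from CD36, the genes shown have bars below 0 in fat and above 0 in the mammary gland, and only the difference for CIDEA passed the interaction test.

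Against liver, the other main tissue of lipid handling, 2 of 20962 features (0.00954%) were called, and 4 with the goat as a block. Leaving out goat 2, 3, 6, 64 or 73 gave 1, 3, 1, 0 and 0 called features, and leaving out goat 54 gave 6. Both called features were lncRNAs. In fat, LINC45759 had 8.97, 9.03 and 18.8 CPM in lactating goats, against 75.2, 237 and 99.8 CPM in dry goats. In liver it had 152, 359.7 and 195 CPM in lactating goats, against 145, 173 and 139 CPM in dry goats, where the goats of both states overlapped. The difference was -4.12 ± 0.61 SE (adjusted p = 0.0488, and 0.0482 with the block). In fat, LINC34935 had 1.65, 1.35 and 2.41 CPM in lactating goats, against 0, 0 and 0 CPM in dry goats, with 0 in every dry goat. In liver it had 4.41, 13.4 and 6.15 CPM in lactating goats, against 53.6, 63.5 and 34.7 CPM in dry goats (adjusted p of the difference = 0.0450). Of 17 fatty acid synthesis genes 14 had a negative difference from liver (median -1.45), as had 13 of 13 mitochondrially encoded genes (median -1.05), beside a median of 0.03 for all features.

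Set against the mean of the other 32 tissues of each goat, the effect in fat gave 0 called features of 31071 (0%) with limma, and 1707 at an unadjusted p under 0.05. Each alternative run for this test also gave 0. The members still stood at the ends of the order of tissues. ELOVL6, ACACA, THRSP, ACSL1 and ACSS2 had their lowest difference of the 33 tissues in fat (rank 33), and FASN ranked 32. For ACACA the difference between lactating and dry goats was -2.69 in fat and -0.09 on average in the other tissues (log2 CPM, adjusted p = 0.885). The median over 18 fatty acid synthesis genes was -1.31 in fat and -0.07 in the other tissues, and 17 of the 18 differences between them were negative. All 13 mitochondrially encoded genes had a negative difference, with a median of -1.12. Over all 31071 features 13795 differences were negative, with a median of 0.06. A negative majority also held for adipocyte transcription factors (9 of 10, median -0.99), the growth hormone, prolactin and IGF axis (10 of 13, -0.33) and chaperones (11 of 15, -0.32). Insulin signalling genes (14 of 16, 0.30) and endothelial markers (7 of 8, 0.79) had mostly positive differences.

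Other genes had the same sign of difference in most tissues of these goats. PDK4 had a higher mean in lactating goats in 28 of the other 32 tissues, and its difference was 2.38 in fat (rank 6 of 33) and 1.11 on average elsewhere. ZBTB16 was higher in 32 of 32 other tissues, with 2.59 in fat and 1.46 elsewhere. FKBP5 was higher in 31 of 32, with 1.67 in fat (rank 15) and 1.52 elsewhere. BYSL was higher in 31 of 32, and its difference was the highest of the 33 tissues in fat, at 2.64, beside 1.25 elsewhere. The lncRNA LINC26213 was higher in 0 of 32, with -1.99 in fat (rank 13) and -2.18 elsewhere, so its lower level was not particular to fat. LIPE was higher in only 19 of 32, with 1.78 in fat and 0.60 elsewhere. SFRP5 was higher in 25 of 32, with 2.14 in fat and 0.68 elsewhere. None of these differences between fat and the other tissues passed the test.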

How the data were processed

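Total RNA was measured in 33 tissues of 6 goats, with 1 library each, and the 6 subcutaneous fat libraries were grouped by the state and goat in their titles. The authors deposited expected counts per feature and library, of which 37.1% of those above 0 held fractions and were rounded here. The natural log offsets the authors deposited, which join library size and gene length, served only as an alternative scaling. The lncRNA annotation the authors deposited (a GTF, a list of feature positions) served to sort lncRNAs from other genes. STAR, StringTie and edgeR are named, per the submitters' processing notes, without versions. No source used here gives the genome build or the use of strand in counting, which leaves overlapping, antisense and near-identical genes uncertain. RefSeq (ARS1.2) was used for names and overlaps only, and matched 23502 of 39734 features.

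edgeR (version 4.0.16, R 4.3.3) compared lactating with dry goats by the quasi-likelihood F-test with TMM scaling, filterByExpr with a minimum count of 10 and Benjamini-Hochberg adjustment at 0.05, two-sided. The SE is the log2 fold change divided by the square root of F. Interactions with mammary gland and liver used 12 libraries. The same goats gave both tissues, so goat numbers pair them, although the residuals of same-numbered libraries correlated by only -0.103 to 0.083. The mean of the other 32 tissues was compared by limma (version 3.58.1) on log2 CPM (prior count 2), keeping features whose mean reached 1 CPM in some tissue. Alternatives were RLE and total-count scaling, filters, genes other than lncRNAs, DESeq2 (version 1.42.0), voom and leaving out each goat. The authors' offsets, and leaving out goat 6 together with lncRNAs, were added after seeing the data. The code was tested on simulated data.

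Counting error alone sets a floor of 3 counts, 0.521 to 0.802 CPM on the TMM scale. The 33 gene lists held 363 genes, of which 344 were matched by symbol; the others were not analysed here. Members and lists were chosen with earlier results of these data known. The rule named ADIPOQ, the 3 genes of each list with the highest mean CPM, the 10 features with the smallest p, and for the interactions the called list members and the 5 called protein-coding genes with the largest difference. Other genes named, among them the separated list members, ribosomal RNA and antisense features and MPC2, were chosen after their values were seen. Some members of the lists are not reported here.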

Additional observations from a re-analysis of the deposited data

Results flagged for a closer look

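For 3 members of the gene lists, the effect of lactation in subcutaneous fat differed from that in the mammary gland by the interaction test. The difference (log2 fold change in fat minus that in mammary gland, edgeR) was -20.01 for CSN2, the beta-casein gene, and -16.95 for CSN3, the kappa-casein gene. Both genes were at 0 in all 3 lactating fat libraries, so these sizes depend on the prior count of the fit and are no bounds. The difference was -4.36 for CIDEA, the lipid droplet gene, with overlapping goats in fat and separated goats in the mammary gland. With the goat as a block, CSN2 kept an adjusted p under 0.05, and CSN3 and CIDEA did not, each at 0.0844.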

How the results depend on the processing

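For lactating against dry goats in fat, edgeR called 0 features with TMM, RLE and total-count scaling, with a mean of at least 5 CPM, with the authors' offsets, and without goat 6 and lncRNAs together. It called 7 with only genes not annotated as lncRNAs and 412 with no filter, while DESeq2 called 151 and voom 2. Leaving out 1 goat gave 0 to 4. For the difference from mammary gland, 30 features were called, 12 with total counts, 266 with no filter and 335 by DESeq2, and 5 to 33 without 1 goat. For the difference from liver, 2 were called, 7 with total counts, 393 with no filter, 0 with a mean of at least 5 CPM and 78 by DESeq2, and 0 to 6 without 1 goat. The cause was not tested. For the other 32 tissues the count was 0 under each alternative run. With the goat as a block, which pairs both tissues of an animal, 7 features were called against mammary gland and 4 against liver. Among the named genes, no value that passed a threshold changed sign, but in the main edgeR comparison within fat none passed. List medians had no threshold, and several changed sign. With total counts the median moved from -0.36 to 0.06 for chaperones and from -0.09 to 0.23 for fatty acid uptake and triglyceride synthesis. Without goat 6 that of keratinocyte markers moved from 0.39 to -0.48. Of the list medians under the alternatives, 458 moved by less than the spread between goats and 22 by more. With 3 goats a state, the counts limit genes near the floor of 0.521 to 0.802 CPM.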

Other observations

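Several genes outside the lists were called by DESeq2 and by edgeR without the filter on low counts, but not by edgeR with that filter, and are given here as values chosen after they were seen. ACACB, the carboxylase whose product restrains fatty acid entry into mitochondria, had 103, 44.1 and 14.0 CPM in lactating goats, against 14.1, 10.2 and 6.95 CPM in dry goats, so that goats 2 and 3 lay above and goat 6 just below the highest dry goat (log2 fold change 2.36 in edgeR, adjusted p = 0.491, and 0.0325 in DESeq2). This is the opposite side from ACACA, the isoform of fatty acid synthesis, with -2.27. PFKFB3, a regulator of glycolysis, had 78.0, 109.6 and 10.7 CPM in lactating goats, against 16.1, 9.03 and 13.1 CPM in dry goats, with overlap through goat 6 (adjusted p = 0.498, and 0.0491 in DESeq2). TKT, transketolase of the pentose phosphate pathway, had 35.5, 24.5 and 19.98 CPM in lactating goats, against 43.5, 69.7 and 116 CPM in dry goats, lower in every lactating goat (adjusted p = 0.471, and 0.0484 in DESeq2). MVD, an enzyme of the mevalonate pathway, had 4.42, 6.26 and 0.952 CPM in lactating goats, against 9.86, 25.9 and 107 CPM in dry goats, with most of the difference in goat 73 (adjusted p = 0.463, and 0.00228 in DESeq2).

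Among secreted and matrix proteins, GPX3, a plasma glutathione peroxidase, had 84.3, 68.3 and 19.0 CPM in lactating goats, against 11.9, 15.5 and 6.42 CPM in dry goats, higher in every lactating goat (adjusted p = 0.404, and 0.00987 in DESeq2). DPT, dermatopontin, had 98.8, 36.7 and 45.4 CPM in lactating goats, against 20.8, 8.08 and 4.55 CPM in dry goats. THBS1, thrombospondin 1, had 55.1, 55.4 and 23.8 CPM in lactating goats, against 10.5, 17.6 and 8.29 CPM in dry goats. Both were higher in every lactating goat, with DESeq2 adjusted p-values of 0.0107 and 0.0173. SFRP2, a secreted modulator of Wnt signalling from the same family as SFRP5, lay on the other side, with 0.421, 0.521 and 0 CPM in lactating goats, against 3.81, 9.99 and 4.81 CPM in dry goats (adjusted p = 0.378, and 0.00538 in DESeq2). DACT2, another gene of Wnt signalling, had 0, 0 and 0.476 CPM in lactating goats, against 3.14, 7.13 and 8.02 CPM in dry goats (DESeq2 adjusted p = 0.00575). The lactating values of SFRP2 and DACT2 were at or under the level of 3 counts. DTNA, a dystrobrevin, had 0, 0.348 and 0 CPM in lactating goats, against 6.50, 4.99 and 6.42 CPM in dry goats, and of the 31071 features its difference from the other 32 tissues had the smallest p (1.99e-05, adjusted p = 0.617 with limma). DTNA has an annotated antisense transcript.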
